A study of Mus musculus with 6 samples.

Results

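The genes described here are 7 genes that mark pregranulosa cells, the supporting cells of the fetal ovary: Foxl2, Fst, Irx3, Irx5, Runx1, Lgr5 and Cdkn1b. They were chosen by name out of 35974 gene names in RNA-seq libraries of whole mouse ovaries at embryonic day E15.5. No rule on their values was used, but earlier results of these data were known at the choice. The counts of all transcripts with the same gene name were added up, and all 7 genes were among the 19435 genes with enough counts to be tested. All embryos were C57BL/6J. In the PB group, the pregnant females had been gavaged with panobinostat (PB), an inhibitor of histone deacetylases (HDACs), at 5 mg/kg every other day from E6.5 until E15.5. In the control group, they had received the vehicle, DMSO in water. The sample labels give the same dose as a daily dose. Each group comprised 3 pools of ovaries, called control 1 to 3 and PB 1 to 3. The size of a pool is given as 4 ovaries in the extraction protocol, as 6 to 8 in the series' design and as a minimum of 8 in the RNA-seq methods. How many litters a pool came from is not given in the sources used here, so the p-values below measure the spread between pools.

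Pregranulosa cells surround the oocytes and later become the granulosa cells of the follicle. FOXL2 is the forkhead transcription factor that keeps supporting cells on the ovarian path, and RUNX1 acts beside it in fetal supporting cells. IRX3 and IRX5 are homeodomain transcription factors encoded side by side in the genome, and both are needed for contacts between oocytes and granulosa cells. Follistatin, the product of Fst, is secreted and binds activins. LGR5 is a receptor for R-spondins, which strengthen WNT signalling, and CDKN1B (p27) inhibits cyclin-dependent kinases in supporting cells that have left the cell cycle. Several of these genes are not restricted to pregranulosa cells: Lgr5 is also known from the ovarian surface epithelium, Runx1 from blood cells and Cdkn1b from many cell types.

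The total counts of the 6 pools lay between 97165644 and 125985399, and the 7 genes held 0.0717% to 0.0864% of the counts assigned to genes. No pools were copies of each other. The markers of other gonadal cells were checked in the same pools. The testicular Sertoli cell gene Sox9 was at 4.45 ± 0.741 TPM (SD, n = 3) in control and 4.46 ± 0.760 in PB, and Sry was at 0 in every pool, which allows up to 3 counts, or 0.0257 to 0.0319 counts per 1e+06 counts (CPM), for counting error alone. TPM is the count divided by transcript length and scaled to a sum of 1e+06 in each library, and is used below to compare levels between genes. Y-linked genes summed to at most 0.439 CPM. Of 7 markers of the surface epithelium, all 7 had positive log2 fold changes, as had 50.7% of all tested genes. In 3 of the 7, all PB pools were above all control pools, a pattern found in 5.1% of all tested genes. An unadjusted edgeR p under 0.05 with PB higher was found in 2 of the 7, and in 2.03% of all tested genes. The smallest edgeR FDR among the 7 markers was 0.888. Their summed level spanned 464 to 550.3 CPM in control, and 560 to 659 in PB, without overlap. For the endothelium, the sums were 341 to 374 and 323 to 346 CPM, for germ cells 743 to 958 and 620 to 1098 CPM, for macrophages 57.4 to 65.8 and 52.9 to 64.7 CPM, for the mesonephros 15.3 to 33.6 and 14.7 to 21.2 CPM, and for Leydig and adrenal cells 56.6 to 62.8 and 32.8 to 61.6 CPM. Red cell transcripts ranged from 15040 CPM in control 3 to 31939 CPM in control 2, with PB pools between 18352 and 20109 CPM, and all 8 red cell markers had negative log2 fold changes (median -0.29). Of the 9 germ cell markers 6 were below 0, and Sycp3 (0.34), Mael (0.25) and Sycp1 (0.24) were above. Kit (-0.29), Pou5f1 (-0.58) and Dppa3 (-0.52), named after their values were seen, were lower with an unadjusted edgeR p under 0.05. So were 2.43% of all tested genes, and the FDR of Kit, Pou5f1 and Dppa3 was 0.888. For Pou5f1, control 2 (18.3 CPM) lay inside the PB range of 17.0 to 18.6 CPM. For Dppa3, control 2 (11.9 CPM) lay below the PB range of 12.2 to 12.8 CPM. All PB pools of Kit were below its control pools, as in 5.61% of all tested genes. The log2 fold change was -0.0031 for Dazl, -0.036 for Ddx4 and -0.082 for Stra8. The part of these other cell types in the results below was not tested. The RNA came from whole ovaries, so fewer pregranulosa cells and less RNA per cell cannot be told apart.

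The 7 pregranulosa genes stayed near their control level in PB-exposed ovaries. None of them was called with edgeR at an FDR of at most 0.05 and a fold change of at least 2, thresholds that 0.0154% of all tested genes passed, and DESeq2's Wald test called none of them either. Foxl2, Fst, Irx3, Irx5 and Lgr5 had mean differences smaller than the SD of the PB pools. Runx1 and Cdkn1b had log2 fold changes of 0.15 and 0.19, with unadjusted p-values of 0.0342 and 0.0477 by edgeR that did not hold after adjustment (FDR = 0.888 for both). An unadjusted p under 0.05 was found in 4.46% of all tested genes, in 2.03% with the higher level in PB and in 2.43% with the lower. The FDR of the 7 genes ranged from 0.888 to 0.994. Their media log2 fold change was 0.016, beside 0.0020 over all tested genes, and 4 of them were above 0, as were 50.7% of all genes. The median size of the log2 fold change was 0.049 in the 7 genes and 0.0998 in all genes. The 95% confidence intervals of the fold changes, from the edgeR fit, spanned 0.832 to 1.298 over the 7 genes, so each interval excluded a 2-fold change in either direction. Read relative to transcript length, as TPM, all 7 genes had positive log2 differences. On that scale the median of all genes itself moved up by 0.104, and Foxl2 (0.094), Fst (0.091) and Irx3 (0.038) stayed below that shift.

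**Figure D1:**
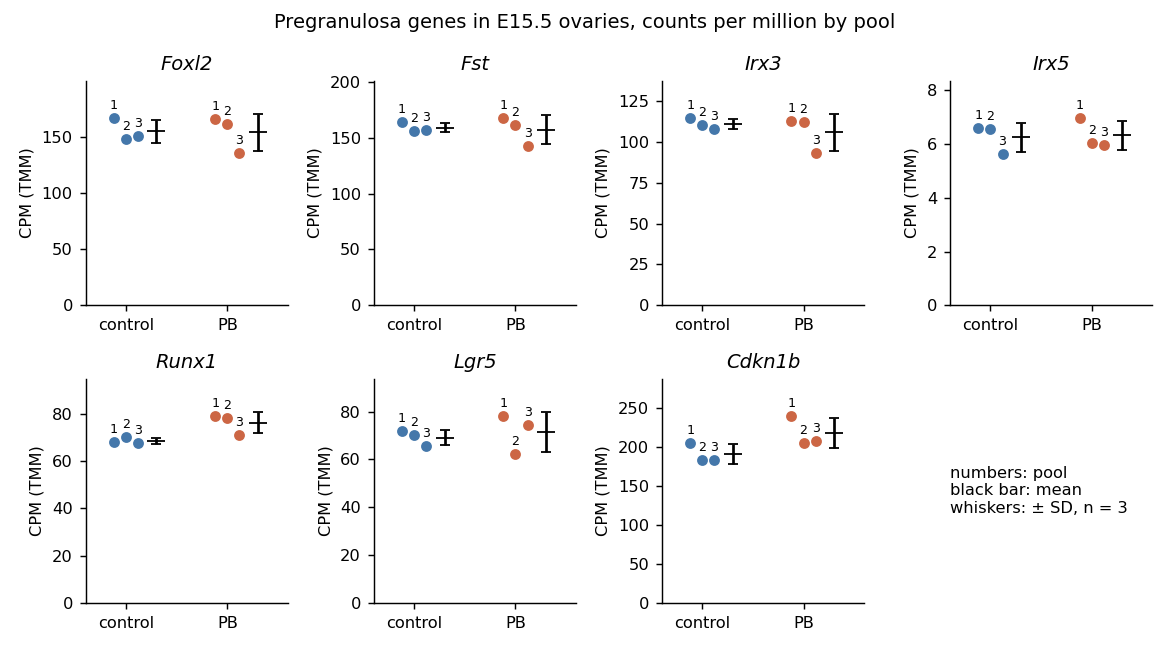
CPM after TMM scaling of each of the 7 genes in each pool, with the pool number beside its point; the y axes start at 0, black bars are means and whiskers ± SD (n = 3). Runx1 is the gene in which all 3 PB pools, from 71.1 to 79.0 CPM, lie above the 3 control pools, and PB 3 is the lowest pool for Foxl2, Fst and Irx3.

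**Figure D2:**
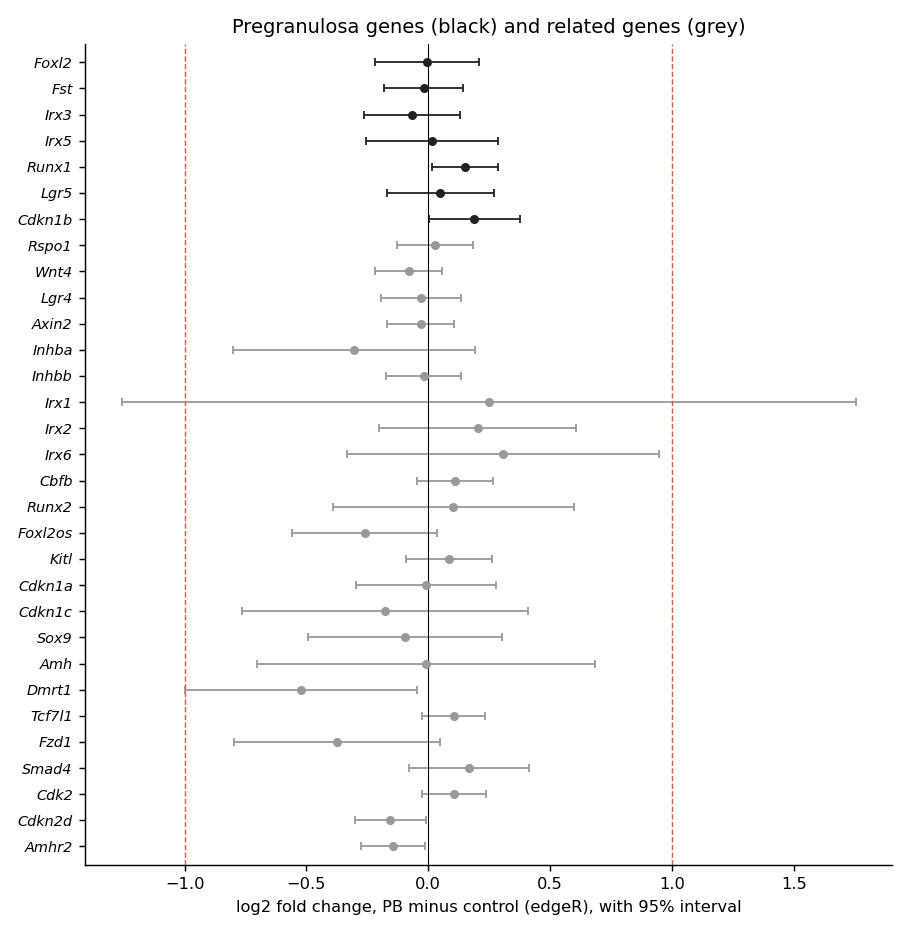
Log2 fold change of PB against control from edgeR, as points with 95% confidence intervals, for the 7 genes in black and for genes of their pathways and relatives in grey; red dashed lines mark a 2-fold change. The black intervals lie inside the dashed lines, whereas that of the sparsely counted Irx1 crosses both.

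Compared per transcript length, the levels of the 7 genes fell into steps. Cdkn1b stood at 108 ± 19.3 TPM in control and 126.2 ± 20.2 in PB, Fst at 89.1 ± 6.00 and 95.01 ± 8.12, and Foxl2 at 88.4 ± 8.35 and 94.4 ± 9.77. The ranges of these 3 genes over the 6 pools overlapped. Within each of the 6 pools Cdkn1b was above Fst and Foxl2, whereas Fst and Foxl2 changed places between pools. Irx3 followed at 69.0 ± 3.78 and 71.0 ± 7.15 TPM, with its highest pool at 77.8 and the lowest Foxl2 pool at 79.4. Lgr5 was found at 21.4 ± 1.02 and 24.0 ± 3.68 TPM, Runx1 at 14.4 ± 0.436 and 17.2 ± 0.986, and Irx5 at 3.79 ± 0.244 and 4.15 ± 0.475, and the ranges of these last 3 genes did not overlap. The step from Foxl2 to the Sertoli gene Sox9 was 20.1 ± 2.41 in control and 21.6 ± 4.15 in PB, as the ratio of their TPM.

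**Figure D3:**
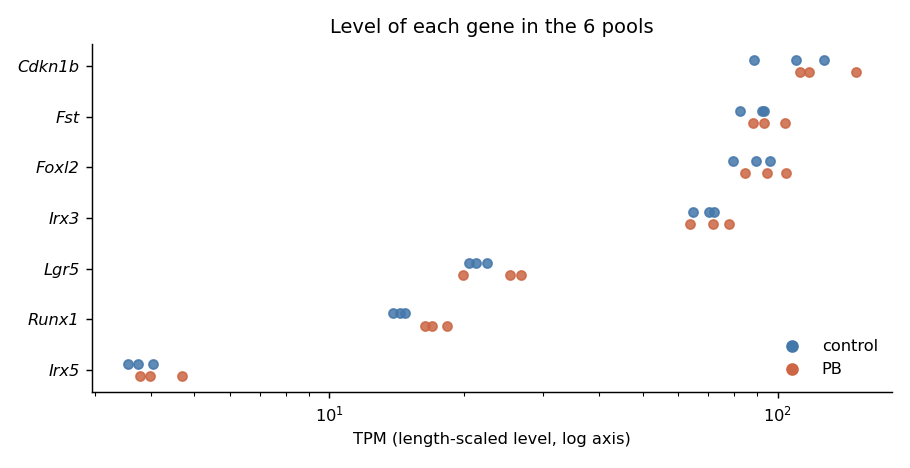
TPM of each gene in the 3 control and the 3 PB pools, 1 point per pool, on a log axis. Cdkn1b, Fst and Foxl2 share a range, and Irx3, Lgr5, Runx1 and Irx5 follow in steps down to 3.57 TPM.

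Foxl2 lies on the plus strand of chromosome 9 of mm10. Its annotated transcript NM_012020.2 is 1 exon that spans 98955607 to 98958126 and codes for 375 codons, while transcripts assembled from these libraries start as early as 98954884. The annotated start is meant below. Its antisense neighbour Foxl2os starts 297 bases before that, at 98955310, and runs the other way. The 250 bases upstream of the annotated start, chr9:98955357-98955606, reach into that space and are shown because transcripts assembled from these libraries run through it. They are taken from RefSeq (GRCm38.p6), with CpG dinucleotides in capitals.
Foxl2, 250 bases upstream: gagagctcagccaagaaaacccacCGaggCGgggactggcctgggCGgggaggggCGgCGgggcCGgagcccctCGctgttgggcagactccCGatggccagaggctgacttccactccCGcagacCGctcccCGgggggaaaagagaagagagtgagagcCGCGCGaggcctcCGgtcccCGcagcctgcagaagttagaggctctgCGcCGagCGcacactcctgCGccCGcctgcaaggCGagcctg
This window held 22 CpG, more than 85.2% of the 32851 mouse promoters of the same length, whose median was 6. The letters searched on both strands were GTAAACA (forkhead, in 3.2% of all promoters), TGTGGT (RUNX, 14.0%), CTTTGAT (TCF/LEF, 3.2%) and TATAAA (12.4%), and none of these was in it.

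Foxl2 counted 166, 148 and 150.4 CPM in control and 165, 161 and 135 CPM in PB. The pools overlapped, and the lowest was PB 3. The means of 155 ± 10.1 and 154 ± 16.3 CPM (SD, n = 3) gave a log2 fold change of -0.0070 (SE 0.089, edgeR FDR = 0.994) with a 95% interval of the fold change from 0.858 to 1.15. Without PB 3 the log2 fold change was 0.077, and without control 1 it was 0.046. The annotated transcript NM_012020.2 held 90.1% of the Foxl2 counts (log2 fold change -0.036, SE 0.096). The other counts went to 3 assembled transcripts with a short intron, of which MSTRG.19083.1 and MSTRG.19083.2 start upstream, the former 723 bases before the annotated start, overlapping Foxl2os by 427 bases. These upstream transcripts together took 8.36%, 7.63% and 8.86% of the gene in control and 10.2%, 8.13% and 10.2% in PB, which overlapped (exact permutation test, two-sided, p = 0.3, where the smallest p for 3 against 3 pools is 0.1). Between them the counts moved from library to library. MSTRG.19083.1 had 683, 1314 and 1255 counts in control and 1, 670 and 93 in PB, without overlap, as in 9.95% of all tested transcripts in either direction. Its SE of 1.78 was nearly as large as the log2 fold change of -2.10 (edgeR FDR = 1.00). MSTRG.19083.2 had 683, 0 and 0 counts in control and 1668, 670 and 1509 in PB (log2 fold change 2.39, SE 2.69). The sum over the gene does not depend on how reads were divided between these transcripts.

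Foxl2os had 4.06, 3.77 and 4.41 CPM in control, and 3.69, 3.45 and 3.08 in PB. Every PB pool was lower than every control pool, a pattern found in 5.61% of all genes in this direction. The log2 fold change was -0.26 (SE 0.12, edgeR FDR = 0.888). The TPM ratio of Foxl2 to Foxl2os was 59.7, 57.1 and 49.7 in control and 65.0, 68.1 and 63.8 in PB, also without overlap. The libraries were prepared with a kit that keeps strand, but the strand setting of the counting is not given in the sources used here, and the assembled transcripts overlap Foxl2os, so the counts of these neighbours may be divided imperfectly.

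**Figure D4:**
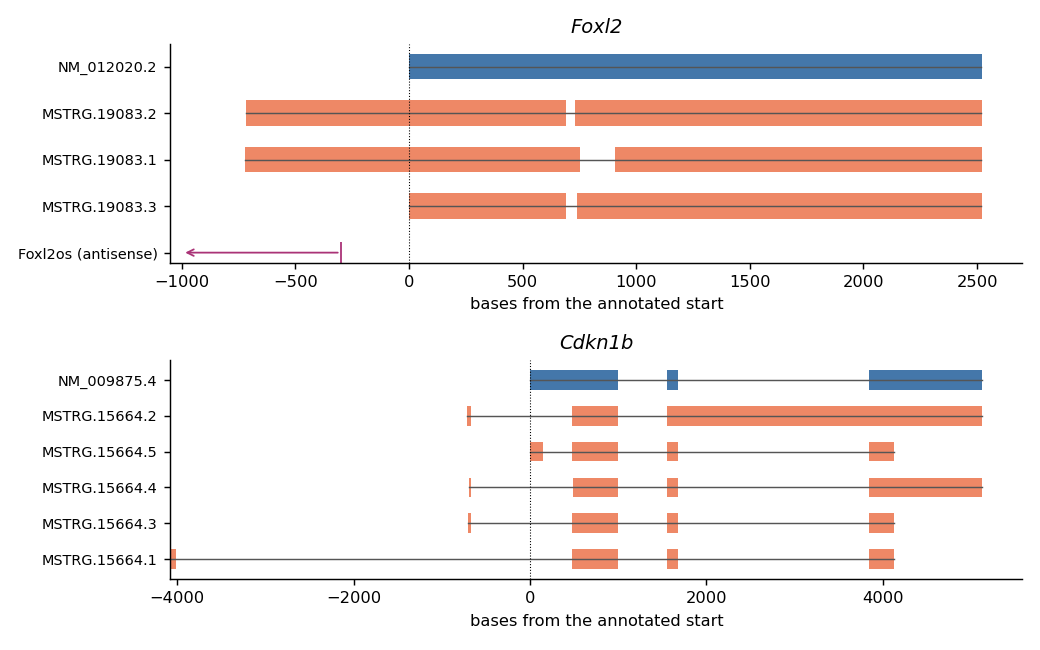
Exons (boxes) of the deposited transcripts of Foxl2 (top) and Cdkn1b (bottom) against the distance in bases from the annotated start (dotted line), with annotated RefSeq transcripts in blue, assembled transcripts in orange and the start and direction of Foxl2os as a purple arrow. Assembled Foxl2 transcripts start up to 723 bases upstream, beyond the start of Foxl2os at 297 bases, and the assembled Cdkn1b transcript MSTRG.15664.2 starts 711 bases upstream.

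Irx3 and Irx5 are encoded on chromosome 8, Irx3 at 91798511 to 91801654 on the minus strand and Irx5 at 92357796 to 92361456 on the plus strand, with starts 556142 bases apart. Irx3 has annotated transcripts that differ by 14 bases at the end of an exon, at chr8:91799659-91799672. The stretch is printed from the GENCODE transcripts (GRCm38) with 18 bases on either side, the 14 bases in capitals, because these transcripts differ only there.
Irx3, alternative exon end: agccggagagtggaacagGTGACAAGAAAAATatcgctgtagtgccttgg
The transcript that includes these bases, NM_001253822.1, codes for 522 codons, and NM_008393.3, without them, for 507.

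Irx3 counted 115, 111 and 108 CPM in control, and 113, 112 and 93.0 in PB. The pools overlapped, and PB 3 lay below all others. The means were 111 ± 3.16 and 106 ± 11.3 CPM, a log2 fold change of -0.067 (SE 0.082, edgeR FDR = 0.905) with an interval of the fold change from 0.832 to 1.09, and without PB 3 the log2 fold change was 0.018. The form with the 14 bases took 8.45%, 7.48% and 10.8% of the Irx3 counts in control and 7.64%, 9.57% and 8.73% in PB (exact permutation test, two-sided, p = 1). The log2 fold changes of NM_008393.3 and NM_001253822.1 were -0.060 (SE 0.094) and -0.10 (SE 0.21).

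Irx5 was the lowest of the 7 genes, with 647, 764 and 529 counts in control and 690, 618 and 693 in PB. These correspond to 6.59, 6.55 and 5.62 CPM against 6.96, 6.05 and 5.96 CPM, which overlapped. The means of 6.25 ± 0.550 and 6.32 ± 0.552 CPM gave a log2 fold change of 0.016 (SE 0.11, edgeR FDR = 0.987), with an interval of the fold change from 0.838 to 1.22. Its sign turned without control 3 (-0.060) and without PB 1 (-0.064). All counts belonged to NM_018826.2, which codes for 484 codons. The ratio of Irx3 to Irx5 in TPM was 18.2 ± 1.28 in control and 17.2 ± 1.59 in PB. The other Iroquois genes were lower than Irx5. Irx2 was at 1.55 ± 0.266 TPM in control and 1.93 ± 0.370 in PB, Irx1 at 0.140 ± 0.102 and 0.174 ± 0.0932, Irx6, which lies next to Irx5, at 0.141 ± 0.0122 and 0.188 ± 0.0263, and Irx4, named here after its values were seen to complete the family, at 0.205 ± 0.120 and 0.155 ± 0.0218. Their log2 fold changes were 0.20 (SE 0.17) for Irx2, 0.25 (SE 0.63) for Irx1, 0.31 (SE 0.27) for Irx6 and -0.44 (SE 0.52) for Irx4. Of these, only Irx6 had groups that did not overlap, with PB higher, as in 5.1% of all tested genes. Irx6 had 29, 40 and 32 counts in control and 35, 50 and 43 in PB, and its log2 fold change was 0.15 without PB 2.

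Runx1 spans 92601466 to 92826074 of chromosome 16 on the minus strand. It is transcribed from a distal start at 92826074 and a proximal start at 92697329, 128745 bases apart, and the proximal transcripts include or skip a coding exon of 192 bases at chr16:92644154-92644345. Both starts and the exon are shown, as they set which RUNX1 protein is made. The sequences upstream, from RefSeq (GRCm38.p6), span chr16:92697330-92697579 and chr16:92826075-92826324 and have CpG in capitals. The exon is from the GENCODE transcript (GRCm38).
Runx1, 250 bases upstream of the proximal start: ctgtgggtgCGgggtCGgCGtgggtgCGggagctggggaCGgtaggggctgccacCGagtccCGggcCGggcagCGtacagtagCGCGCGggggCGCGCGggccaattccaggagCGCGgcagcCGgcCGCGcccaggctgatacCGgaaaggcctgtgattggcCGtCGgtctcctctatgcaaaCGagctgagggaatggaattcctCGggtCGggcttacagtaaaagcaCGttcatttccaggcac
Runx1, 250 bases upstream of the distal start: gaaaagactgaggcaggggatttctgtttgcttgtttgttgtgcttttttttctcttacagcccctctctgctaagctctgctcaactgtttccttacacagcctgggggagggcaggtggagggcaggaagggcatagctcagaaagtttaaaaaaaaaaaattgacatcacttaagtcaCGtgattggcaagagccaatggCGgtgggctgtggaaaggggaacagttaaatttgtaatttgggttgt
Runx1, alternative exon: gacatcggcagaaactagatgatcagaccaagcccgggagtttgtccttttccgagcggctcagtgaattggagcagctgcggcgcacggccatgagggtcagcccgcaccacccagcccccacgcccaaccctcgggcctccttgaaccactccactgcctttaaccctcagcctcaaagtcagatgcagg
The proximal window held 27 CpG, more than 91.4% of all promoters, and had a GC content of 67.6%. The distal window held 2 CpG, more than 18.8% of promoters, with a GC content of 45.6%. None of the motif letters searched in the Foxl2 window was in either. The proximal transcripts code for 451 codons with the exon (NM_001111023.2) and 387 without it (NM_009821.3), and the distal NM_001111021.2 codes for 465.

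Runx1 counted 68.0, 70.1 and 67.7 CPM in control and 79.0, 78.3 and 71.1 CPM in PB. All PB pools were higher than all control pools, as in 5.1% of all genes (10.7% in either direction). The means were 68.6 ± 1.28 and 76.1 ± 4.37 CPM, a log2 fold change of 0.15 (SE 0.056, edgeR FDR = 0.888, unadjusted p of 0.0342), and the interval of the fold change was 1.01 to 1.22. The edgeR p was 0.00805 without PB 3 and between 0.0555 and 0.125 without any other pool, and the log2 fold change ranged from 0.12 to 0.20 over these fits. Most counts came from the proximal start. Transcripts of the distal start took 4.62%, 8.37% and 3.28% of the gene in control and 3.59%, 7.68% and 4.65% in PB (exact permutation test, two-sided, p = 1). Transcripts with the 192-base exon made up 66.5%, 75.9% and 68.2% in control and 67.7%, 69.5% and 74.8% in PB (exact permutation test, two-sided, p = 0.8). NM_001111023.2, which held 67.5% of the counts, had 4276, 5822 and 4259 counts in control and 5132, 5203 and 5927 in PB. After scaling, all its PB pools lay above its control pools, as in 4.92% of all tested transcripts, and its log2 fold change was 0.15 (SE 0.079, edgeR FDR = 1.00). NM_009821.3, with 27.0%, had a log2 fold change of 0.17 (SE 0.22). Both proximal forms thus had similar log2 fold changes, with the wider error in the less abundant form.

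Of the relatives, Cbfb, the partner of all RUNX proteins, was at 54.8 ± 3.85 TPM in control and 63.9 ± 4.35 in PB (log2 fold change of CPM 0.11, SE 0.065). Runx2 was at 0.661 ± 0.126 and 0.715 ± 0.0776 TPM (0.10, SE 0.21). The ratio of Runx1 to Cbfb in TPM was 0.263 ± 0.0182 in control and 0.270 ± 0.0259 in PB, and that of Runx1 to Runx2 was 22.2 ± 4.07 and 24.3 ± 3.81. Of 10 IRX, RUNX and FOXL relatives and partners tested, 6 were above 0 and 4 below, none had an edgeR p under 0.05, and the media log2 fold change was 0.10.

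**Figure D5:**
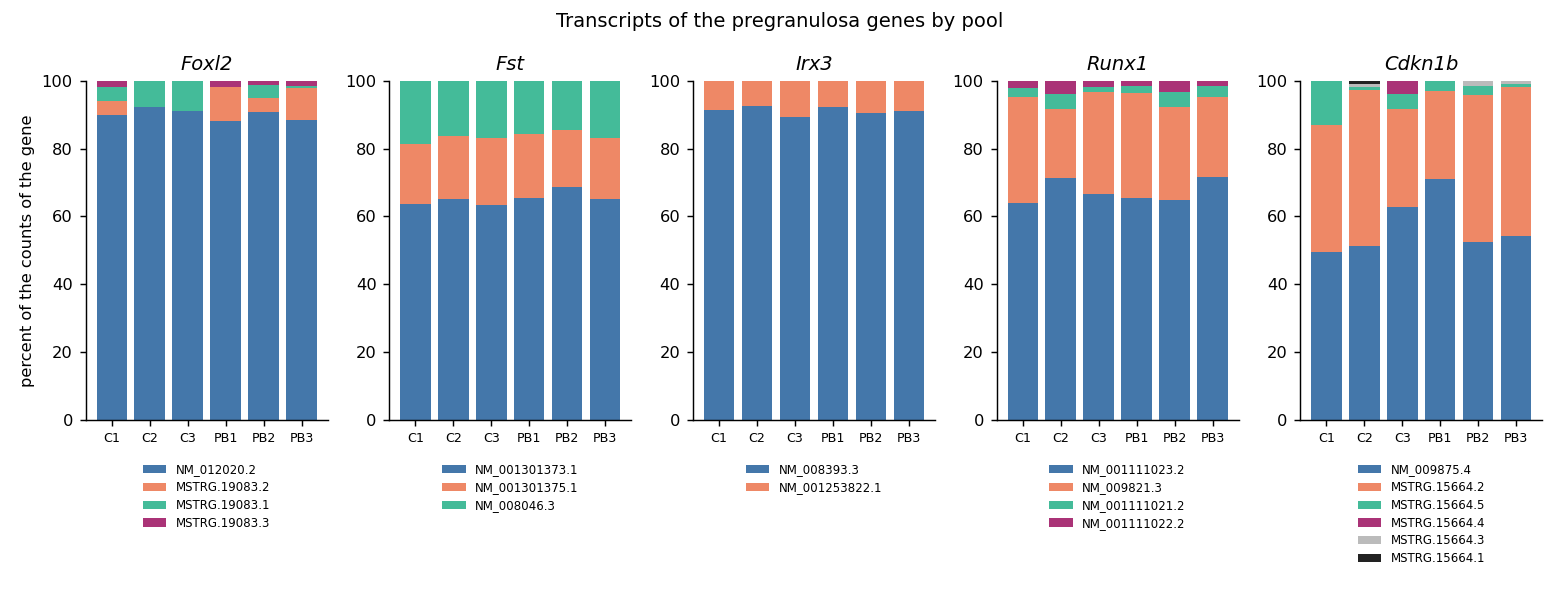
Share of each transcript in the counts of its gene, in percent, stacked per pool (C1 to C3 control, PB1 to PB3), for the 5 genes with more than 1 transcript. The main transcripts of Foxl2, Fst, Irx3 and Runx1 keep similar shares in the 6 pools, while NM_009875.4 of Cdkn1b varies between 49.6% and 71.0%.

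Fst lies on chromosome 13 at 114452262 to 114458951, minus strand. Its annotated transcripts differ near the end of the protein. In NM_001301373.1 an exon begins with 3 bases that NM_008046.3 lacks, at chr13:114454508-114454510, which leaves 344 and 343 codons. NM_001301375.1 instead has a last exon longer by 300 bases, at chr13:114453506-114453805, and codes for 317 codons, the shorter follistatin without the acidic tail. The 3 bases are shown in capitals between 18 bases on either side (GENCODE, GRCm38), because these forms differ by them alone.
Fst, alternative exon start: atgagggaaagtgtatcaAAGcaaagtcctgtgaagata

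Fst counted 164, 156 and 158 CPM in control and 168, 162 and 143 CPM in PB, which overlapped, with PB 3 the lowest. The means were 159 ± 4.45 and 157 ± 13.0 CPM, a log2 fold change of -0.018 (SE 0.067, edgeR FDR = 0.971), and the fold change had an interval of 0.883 to 1.10. The log2 fold change was 0.048 without PB 3 and 0.0037 without control 1. NM_001301373.1 held 65.3% of the counts (log2 fold change 0.039, SE 0.082), NM_001301375.1 18.2% (-0.078, SE 0.11) and NM_008046.3 16.5% (-0.16, SE 0.11). The form with the longer last exon took 17.7%, 18.6% and 19.6% in control and 18.7%, 16.8% and 17.9% in PB (exact permutation test, two-sided, p = 0.5). The form without the 3 bases took 18.6%, 16.3% and 17.0% in control and 15.8%, 14.5% and 16.8% in PB (exact permutation test, two-sided, p = 0.2). Neither share separated the groups.

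Among the ligands that follistatin binds, Inhbb, the βB subunit of activin and inhibin, was at 28.4 ± 2.47 TPM in control and 30.3 ± 2.39 in PB. Inhba, the βA subunit, was at 1.198 ± 0.368 and 0.916 ± 0.106 TPM. Their log2 fold changes, of CPM, were -0.019 (SE 0.064) and -0.30 (SE 0.21), and that of Inhba was -0.077 without control 3, its highest pool. The ratio of Fst to Inhbb in TPM was 3.14 ± 0.108 in control and 3.14 ± 0.219 in PB. Of 12 genes of activins, inhibins and their partners, 5 were above 0, 7 below, and none had an edgeR p under 0.05 (media log2 fold change -0.0026). Smad4, the shared SMAD of this pathway, had the smallest p of those above 0, with 123, 159 and 158 CPM in control and 161, 170 and 164 CPM in PB (log2 fold change 0.17, SE 0.10, edgeR FDR = 0.888). Its PB pools lay above its control pools, as in 5.1% of all tested genes, and 2 of the control pools were close to the PB level.

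Lgr5 extends from 115450314 to 115587780 of chromosome 10 on the minus strand, and its annotated transcript NM_010195.2, with 18 exons and 907 codons, took all counts. It was measured at 71.7, 70.1 and 65.5 CPM in control and at 78.1, 62.2 and 74.2 CPM in PB. The PB pools lay on both sides of the control pools. The means were 69.1 ± 3.21 and 71.5 ± 8.30 CPM, a log2 fold change of 0.049 (SE 0.092, edgeR FDR = 0.930), with an interval of the fold change from 0.888 to 1.21. Without PB 1 the log2 fold change was -0.025. The summed surface epithelium markers, which did not overlap between the groups, were lowest in control 3 (464 CPM) and highest in PB 3 (659 CPM). Control 3 was also the lowest control pool for Lgr5. Over all pools, however, Lgr5 was lowest in PB 2, where the sum was 560 CPM, and highest in PB 1, where it was 591 CPM. A part of the surface epithelium in the Lgr5 values was not tested.

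Upstream of LGR5, Rspo1, the R-spondin of the fetal ovary, was at 61.8 ± 6.54 TPM in control and 68.1 ± 5.05 in PB, and Wnt4, its partner in ovarian differentiation, at 87.5 ± 4.73 and 89.3 ± 4.76. The second R-spondin receptor Lgr4 was at 76.1 ± 6.48 and 80.3 ± 6.12 TPM, and Axin2, a common target of β-catenin, at 34.0 ± 2.44 and 35.8 ± 2.08. The log2 fold changes, of CPM, were 0.029 (SE 0.065) for Rspo1, -0.081 (SE 0.058) for Wnt4, -0.030 (SE 0.068) for Lgr4 and -0.030 (SE 0.057) for Axin2. Lgr4 exceeded Lgr5 in every pool, with a TPM ratio of 3.55 ± 0.165 in control and 3.40 ± 0.532 in PB. Of the 18 genes of the RSPO1, WNT4 and β-catenin pathway, 5 were above 0 and 13 below, with a media log2 fold change of -0.024, and none had an edgeR p under 0.05. The smallest p of each direction belonged to the transcription factor Tcf7l1 (0.10, SE 0.054, edgeR FDR = 0.888) and the WNT receptor Fzd1 (-0.37, SE 0.18, edgeR FDR = 0.888). Fzd1 was at 41.9, 41.2 and 64.7 CPM in control and at 37.3, 39.5 and 37.3 CPM in PB. The groups did not overlap, as in 5.61% of all tested genes with PB lower, and without control 3 the log2 fold change was -0.13.

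Cdkn1b lies on the plus strand of chromosome 6, where the annotated NM_009875.4 spans 134920401 to 134925525 and codes for 197 codons. The assembled MSTRG.15664.1 starts further upstream, at 134916322, but had 203 counts in control 2 and 0 in every other pool. The gene counted 206.0, 184 and 184 CPM in control and 240.0, 205.8 and 209 CPM in PB. The groups overlapped only in control 1 and PB 2, which were nearly equal, and PB 1 was the highest pool. The means were 191 ± 12.8 and 218 ± 19.0 CPM, a log2 fold change of 0.19 (SE 0.078, edgeR FDR = 0.888, unadjusted p of 0.0477) with an interval of the fold change from 1.002 to 1.298. The p was 0.0526 with DESeq2's Wald test, 0.200 on log2 TPM with limma, and 0.155, 0.155, 0.165 and 0.0509 with edgeR without control 2, control 3, PB 1 and PB 3. It was 0.0319 without control 1 and 0.0326 without PB 2. Without PB 1 the log2 fold change was 0.11.

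The transcripts of Cdkn1b varied more than their sum. NM_009875.4 held 57.0% of the counts, with 10038, 10983 and 10897 counts in control and 16891, 11036 and 13171 in PB. Its log2 fold change was 0.33 (SE 0.20, edgeR FDR = 1.00), and it was highest in PB 1. The assembled MSTRG.15664.2, which starts 711 bases upstream and held 37.9%, had 7579, 9883 and 5037 counts in control and 6232, 9140 and 10625 in PB (0.18, SE 0.24). Transcripts with an upstream start took 37.5%, 47.9% and 32.9% of the gene in control and 26.2%, 44.9% and 44.6% in PB (exact permutation test, two-sided, p = 1). With annotated transcripts alone, the log2 fold change of the gene was 0.33, with an unadjusted edgeR p of 0.148.

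The other inhibitors of cyclin-dependent kinases of the same family bracketed Cdkn1b in level. Cdkn1c was at 544 ± 132 TPM in control and 533 ± 88.2 in PB, and Cdkn1a, a gene well known to rise with HDAC inhibitors, at 27.7 ± 3.00 and 29.6 ± 3.35. The log2 fold change of Cdkn1a was -0.0083 (SE 0.12, edgeR FDR = 0.994) and that of Cdkn1c -0.18 (SE 0.24). Cdkn1c was at 978 CPM in control 2 and between 576 and 580.1 CPM in the other control pools, and without control 2 its log2 fold change was 0.12. With annotated transcripts alone it was -1.64 (SE 0.83). The ratio of Cdkn1b to Cdkn1a in TPM was 3.93 ± 0.854 in control and 4.34 ± 1.136 in PB. Of 17 genes of CDK inhibitors and the G1 phase, 8 were above 0 and 9 below, with a media log2 fold change of -0.0083. Of these, only Cdkn2d, an inhibitor of CDK4 and CDK6, had an edgeR p under 0.05, with 30.9, 30.5 and 28.5 CPM in control and 26.8, 26.0 and 28.0 CPM in PB (log2 fold change -0.16, SE 0.060, edgeR FDR = 0.888, unadjusted p of 0.0389).

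Of 12 other genes of gonadal somatic cells tested, 8 were above 0 and 4 below, and the media log2 fold change was 0.014. Kitl, the ligand of the oocyte receptor KIT, had 581 ± 25.4 CPM in control, and 617 ± 51.5 in PB (log2 fold change 0.086, SE 0.073). Amhr2, the receptor of anti-Müllerian hormone, was at 203, 196 and 183 CPM in control and at 182, 174 and 169 CPM in PB. Its PB pools were just below those of control, as in 5.61% of all tested genes (log2 fold change -0.15, SE 0.055, edgeR FDR = 0.888, unadjusted p of 0.0349). On the male side, 3 of 10 tested Sertoli markers were above 0 and 7 below (media log2 fold change -0.053), with summed levels of 44.3 to 51.8 CPM in control and 40.5 to 48.4 CPM in PB. Sox9 had a log2 fold change of -0.094 (SE 0.17), which was -0.28 without PB 2 and between -0.18 and -0.0084 without any other pool, and Amh of -0.0083 (SE 0.29). Dmrt1, which germ cells express as well, was at 16.9, 10.1 and 16.6 CPM in control and at 10.3, 9.41 and 10.5 CPM in PB (log2 fold change -0.52, SE 0.20, edgeR FDR = 0.888, unadjusted p of 0.0360), with control 2 inside the PB range, and its log2 fold change was -0.73 without control 2.

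At the level of transcripts, the 7 genes comprised 21, of which 13 were RefSeq transcripts and 8 were assembled from these libraries. Of the 19 tested, 0 were called by edgeR (0.0332% of all 51227 tested) and 0 had an unadjusted p under 0.05 (3.56% of all), nor did DESeq2 call any. The groups did not overlap for 1 that was higher and 1 that was lower in PB (4.92% of all higher and 9.95% in either direction). The biological coefficient of variation was 98.4% over transcripts and 20.9% over genes, so transcripts were measured far less precisely than gene sums.

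Over the 6 pools, the coefficient of variation of CPM was lowest for Fst (5.54%) and highest for Cdkn1b (10.1%). The pools that stood high or low differed between some of the genes and were shared by others. Over the 6 pools, the log2 CPM of Foxl2 and Fst correlated at r = 0.97, of Fst and Irx3 at 0.95 and of Foxl2 and Irx3 at 0.89. The other pairs of the 7 genes lay between -0.22 and 0.71. Relative to their own mean over the pools, on the log2 scale, Foxl2, Fst and Irx3 were at -0.19, -0.15 and -0.22 in PB 3, whereas Lgr5 was at 0.082 and Cdkn1b at 0.033 in the same pool. In PB 1, all 7 genes were above their mean, from 0.061 for Irx3 to 0.24 for Cdkn1b. Lgr5 was at 0.16 in PB 1 and -0.17 in PB 2, the widest gap between PB pools among the 7 genes. The gene whose log2 CPM, centred on its own mean, was closest over the 6 pools was sought among 14781 genes, by the root mean square of the difference. It was Ankrd28 for Foxl2 (0.011), Tmx2 for Fst (0.015), Calhm2 for Irx3 (0.013), Pla2g2c for Irx5 (0.025), Gdpgp1 for Runx1 (0.025), Fgfr1op2 for Lgr5 (0.021) and Gm20939 for Cdkn1b (0.021). None of these closest genes was another of the 7. With 6 pools and 14781 genes to choose from, such closeness is a description of these libraries.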

How the data were processed

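RNA from 6 pools of E15.5 ovaries, 3 control and 3 PB, was sequenced with a strand-specific protocol. Per the methods and processing notes, the authors aligned reads to mm10 with HISAT2 2.1.0, assembled transcripts on RefSeq with StringTie 1.3.5 and deposited raw counts per transcript, as unnormalized whole numbers. A further deposited table, their DESeq2 1.30.0 comparison, supplied only gene names and the codes that tell annotated from assembled transcripts. Its fold changes, p-values and normalized values per pool were not used. StringTie shares reads out between overlapping transcripts, so transcript counts depend on that step.

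Counts of named transcripts were summed per gene name. The 1493 transcripts without a name held 3.05% to 4.49% of the counts of a pool and were left out of the sums. Total counts were 97165644 to 125985399 per pool. Genes and transcripts were tested with edgeR 4.0.16 (R 4.3.3) by the two-sided quasi-likelihood test after TMM scaling, with filterByExpr (minimum count 10, minimum total 15), and Benjamini-Hochberg adjustment over all tested. A call needed an FDR of at most 0.05 and a fold of at least 2. TPM used deposited transcript lengths. The standard error is the log2 fold change over the square root of F, and intervals use 6.58 degrees of freedom. Shares were compared by exact permutation tests. The scripts were tested on simulated data.

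The 7 genes and the gene lists were chosen with earlier results of these data known. All 7 genes are given in full, and also transcripts with at least 10% of their gene or its smallest p, the smallest p of each direction per pathway list and a fixed set of relatives. Marker lists of other cell types are given as sums. The sources used here do not say whether the same pool number in both groups marks a shared litter or batch. Alternatives were DESeq2 1.42.0, other scaling and filters, TPM with limma 3.58.1 and a pseudocount of 0.1, an FDR of 0.1, no minimum fold, a replicate block, other transcript groupings and leaving out each pool. Exon sequences and coding lengths are from GENCODE transcripts linked to the same RefSeq name, with the same inner exon boundaries. Their outer ends could differ from the deposited transcripts, and the single exon of Foxl2 has no inner boundary to compare. Promoters are from the RefSeq table, which held 4 of the 7 genes.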

Additional observations from a re-analysis of the deposited data

How the results depend on the processing

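Of the 7 genes, 0 were called in all 16 alternatives, as were 0 genes of the pathway lists in the 15 and 0 of the transcripts of the 7 genes in the 14 that were run for them. Over all genes, 3 were called with edgeR, against 11 with DESeq2's Wald test, 8 with known transcripts only, 5 with no minimum fold, and 3 to 9 when 1 pool was left out. Over all transcripts, 17 were called, against 1169 with DESeq2's Wald test, 39 where all 3 pools of either group needed 10 counts or more, 51 at an FDR of 0.1, and 0 to 19 when 1 pool was left out. With the replicate number as a block, 0 genes and 0 transcripts were called (1091 and 1239 at an unadjusted p under 0.05 by edgeR). The residuals of same-numbered pools correlated at 0.0934, 0.147 and -0.0177 for numbers 1, 2 and 3, and not every pool correlated best with its own number. With 3 pools per group, these small correlations cannot decide whether the pools were paired. The sources used here do not give the numbers as pairs, and the main test did not take the numbers as pairs. The cause of these shifts was not tested.

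Runx1 and Cdkn1b kept their direction in all alternatives, with log2 fold changes of 0.12 to 0.26 and 0.11 to 0.33. The unadjusted edgeR p of Cdkn1b was 0.00438 with the block. Of 472 values for single genes, 437 kept their direction and 35 turned, none of them called. On the TPM scale with limma the log2 differences turned positive for Foxl2 (0.094), Fst (0.091), Irx3 (0.038), Wnt4 (0.028), Lgr4 (0.079), Axin2 (0.076), Inhbb (0.092), Cdkn1a (0.094), Sox9 (0.0023) and Amh (0.061), where the median of all genes was 0.104. On the same scale Amhr2 was at -0.039 and Cdkn2d at -0.044. Known transcripts only turned Lgr4 (0.11) and moved Cdkn1c to -1.64. When 1 pool was left out, the log2 fold changes ranged from -0.067 to 0.077 for Foxl2, -0.071 to 0.048 for Fst, -0.12 to 0.018 for Irx3, -0.064 to 0.056 for Irx5, -0.025 to 0.14 for Lgr5, -0.018 to 0.085 for Rspo1, -0.074 to 0.031 for Lgr4, -0.062 to 0.020 for Axin2, -0.063 to 0.033 for Inhbb, -0.27 to 0.92 for Irx1, -0.069 to 0.21 for Runx2, -0.14 to 0.074 for Cdkn1a, -0.36 to 0.12 for Cdkn1c and -0.22 to 0.20 for Amh.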
